A study of Mus musculus with 2 samples.

Results

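The cells described here are bone marrow barcodes with transcripts of complement C1q, the initiating protein of the classical complement pathway, which resident macrophages of many tissues make. A barcode was taken when it held at least 3 unique molecular identifiers (UMIs, each standing for 1 captured transcript) of C1qa, C1qb and C1qc together. It also had at most 1 UMI of the B cell genes Cd79a and Cd79b, at most 1 UMI of the T cell genes Cd3e, Cd3d and Cd3g, under 1% of UMIs from the granule genes Mpo, Elane, Prtn3 and Ctsg, and under 20% from hemoglobin genes. Of the 12259 barcodes with at least 200 genes and at most 10% mitochondrial UMIs, 202 met these limits. The members were thus chosen on measured expression, and the levels of the genes used in the choice are given as a description.

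Both libraries came from bone marrow of 6-month-old mice on the C57BL/6 background in a model of atherosclerosis, by 10x Genomics 3′ single-cell RNA sequencing. The null-labelled library has the genotype label Apoe(-/-) Itgb3(-/-), and the control-labelled library Apoe(-/-) Itgb3(+/+), so loss of Apoe is shared by both. There was 1 library for each genotype, how many animals each holds was not found in the labels, and no test between genotypes was possible. The 95% intervals below are of counting error alone. Integrin β3 is the product of Itgb3, and the labels do not say which part of Itgb3 or Apoe the null alleles lack, so a 3′ count of either gene does not check them.

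Macrophages of the marrow sit at the centre of erythroblastic islands, where they take up the nuclei that red cell precursors expel and clear aged red cells and neutrophils. They take iron from heme with heme oxygenase (Hmox1), store it in ferritin (Fth1, Ftl1) and release it through the iron exporter ferroportin (Slc40a1). The adhesion molecule Vcam1 holds developing blood cells, and the transcription factor Spic is known in mice for its role in iron-recycling macrophages. C1q itself is built from the chains that C1qa, C1qb and C1qc encode, and it tags dying cells for uptake.

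The null-labelled library held 54 C1q-positive barcodes among 2974, or 1.82% (exact Clopper-Pearson interval 1.37 to 2.36%), and the control-labelled library 148 among 9285, or 1.59% (1.35 to 1.87%). The ratio of the shares was 1.14 (0.818 to 1.57), an interval that includes 1, but the ratio turned on the limits. It was 1.56 (1.08 to 2.21) with at most 5% mitochondrial UMIs, 2.03 (1.19 to 3.41) with at least 10 C1q UMIs and 0.317 (0.160 to 0.576) for members that also held Vcam1 or Slc40a1. B and T cell barcodes, which should lack C1q, reached 3 C1q UMIs in 7 of 747 cases (0.937%) in the null-labelled and 38 of 2464 cases (1.54%) in the control-labelled library. Median depth in these B and T cell barcodes was 5992 UMIs (null-labelled) and 2556 UMIs (control-labelled). The C1q-positive barcodes had a median of 2822.5 UMIs (566 to 52109) in the null-labelled and 5865 UMIs (519 to 44021) in the control-labelled library. Around the minimum of 3 C1q UMIs, barcodes within all other limits numbered 15 in the null-labelled and 54 in the control-labelled library at 2 UMIs, 10 and 35 at exactly 3 UMIs, and 5 and 29 at 4 UMIs.

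Over whole libraries, filtered barcodes had a median of 9363.5 UMIs in the null-labelled and 4999 in the control-labelled library. The libraries shared 11 barcode sequences, none of them from a C1q-positive barcode.

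The label of marrow macrophages was checked against Vcam1 and Slc40a1, and the 2 libraries differed. In the null-labelled library, 12 of 54 C1q-positive barcodes (22.2%) had a UMI of either marker, and in the control-labelled library 118 of 148 (79.7%). Slc40a1 had 1 UMI in 1 null-labelled barcode, against 277 UMIs in 98 control-labelled barcodes. Vcam1 had 19 UMIs in 12 null-labelled barcodes, against 466 UMIs in 95 control-labelled barcodes. In the B and T cell barcodes, Vcam1 was detected in 2.01% of null-labelled and 2.23% of control-labelled barcodes and Slc40a1 in 0.268% of null-labelled and 4.46% of control-labelled barcodes, so the null-labelled Slc40a1 count stood near that background. Since the null-labelled barcodes largely lacked these markers, the barcodes are called C1q-positive here rather than macrophages.

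**Figure D1:**
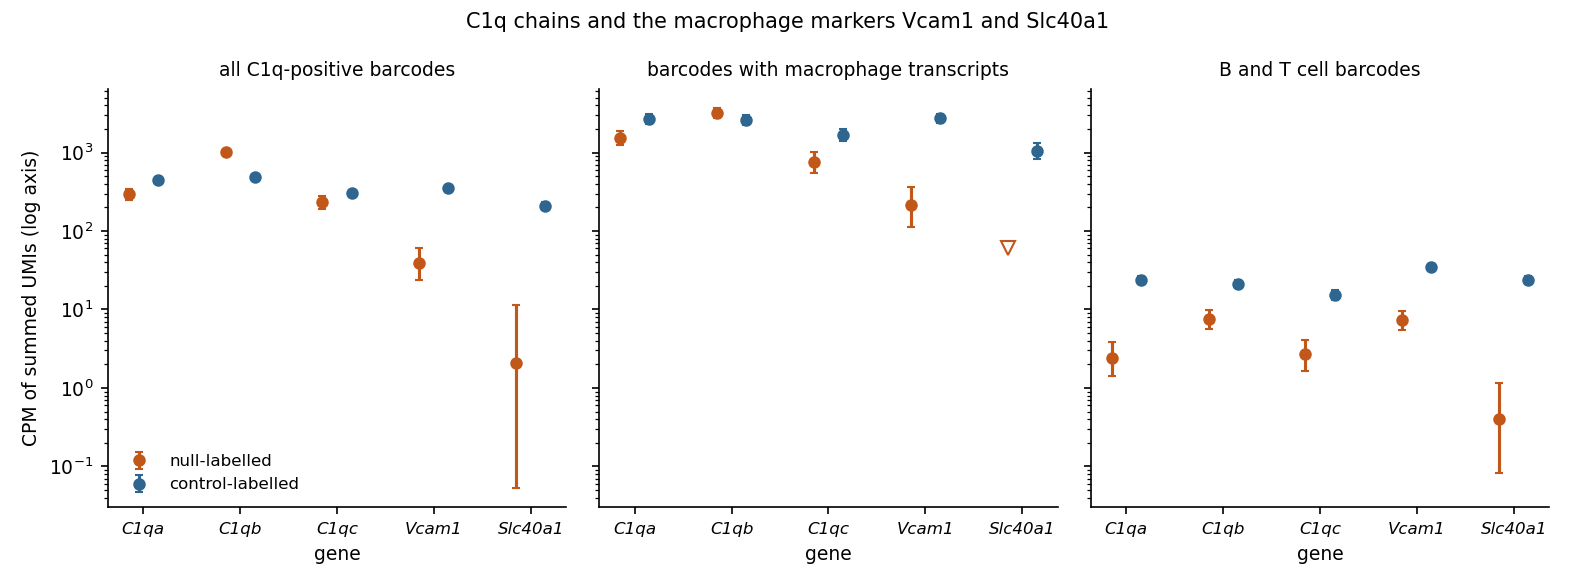
Counts per 1000000 UMIs (CPM, log axis) of the C1q chains, Vcam1 and Slc40a1, summed over barcodes, in the null-labelled (orange) and control-labelled (blue) library. Bars are exact Poisson 95% intervals, and an open triangle is the upper bound of a count of 0. Vcam1 and Slc40a1 stand lower in the null-labelled library in all 3 sets of barcodes.

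The C1q-positive barcodes were also mixed in their other transcripts. After their values had been seen, they were sorted by the share of UMIs from marker lists into barcodes led by neutrophil genes (5% or more), by erythroid genes (5% or more), by macrophage identity genes (0.5% or more, with basophil and mast cell genes under 1%) and others. The macrophage group was split by whether a barcode also had at least 5 UMIs of the monocyte genes Ly6c2, Ccr2, F13a1 and Ms4a6c and at least 1 of Csf1r. These monocyte limits are counts and not shares, so a deep barcode reaches them more readily than a shallow one. The part of depth in the shares of the split groups was not tested. The neutrophil limit was applied first and the erythroid limit next, so barcodes past either were not sorted as macrophage-led, whatever their macrophage share. The neutrophil-led barcodes had a median macrophage identity share of 0.469% in the null-labelled and 0.505% in the control-labelled library. Among the barcodes left, 30 of 54 null-labelled (55.6%) and 40 of 148 control-labelled barcodes (27.0%) were sorted to macrophage transcripts without the monocyte limits. Macrophage and monocyte transcripts together were assigned to 17 null-labelled (31.5%) and 7 control-labelled barcodes (4.73%). Neutrophil transcripts led in 5 null-labelled (9.26%) and 68 control-labelled barcodes (45.9%), and erythroid transcripts in 1 null-labelled (1.85%) and 21 control-labelled barcodes (14.2%). None of these patterns was found in 1 null-labelled and 12 control-labelled barcodes.

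**Figure D2:**
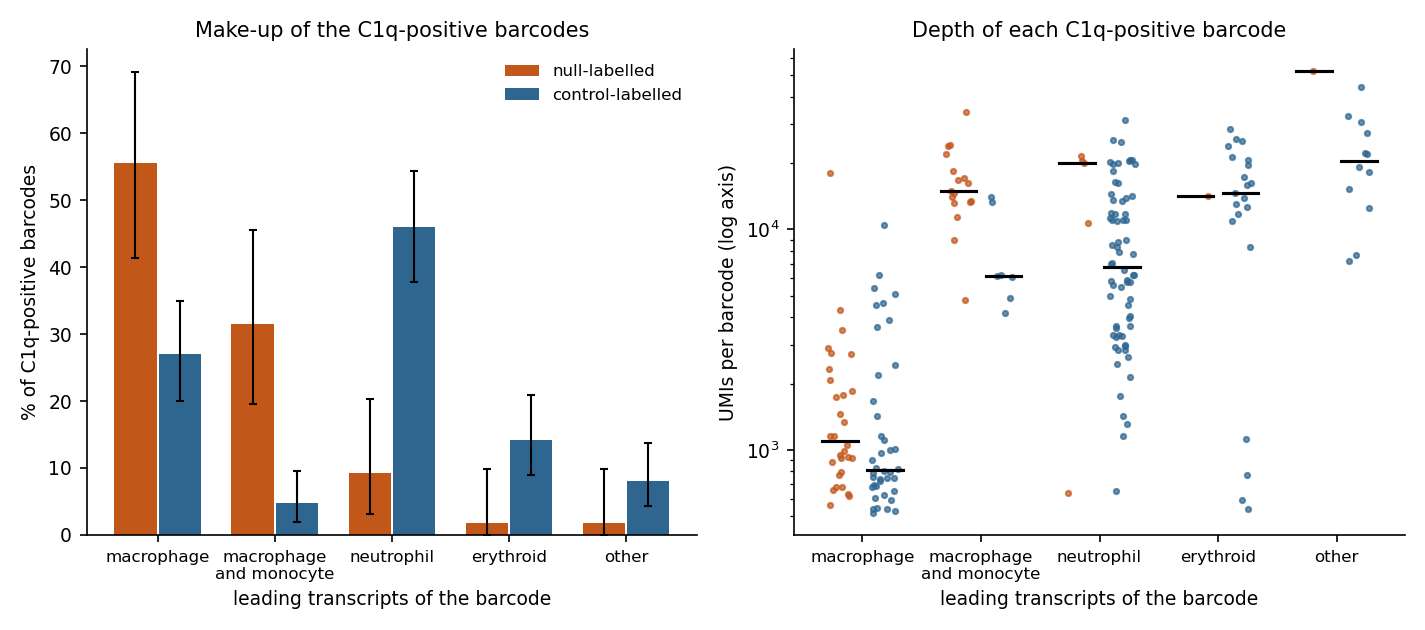
Left, share of C1q-positive barcodes with each leading set of transcripts, null-labelled (orange) beside control-labelled (blue), with exact 95% intervals. Right, UMIs of every such barcode (log axis), with the median as a line. Macrophage-led barcodes, sorted after the neutrophil-led and erythroid-led ones were set apart, made up 55.6% in the null-labelled and 27.0% in the control-labelled library. Most of them are shallow. The monocyte limits that split this group are counts, which shallow barcodes reach less readily.

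The barcodes with macrophage transcripts were shallow in both libraries, with a median of 1103.5 UMIs (551.5 genes) in the null-labelled and 812.5 UMIs (518 genes) in the control-labelled library. The split used monocyte counts, which shallow barcodes reach less readily, so this depth is tied to the split. The barcodes with macrophage transcripts were 1.01% of filtered barcodes in the null-labelled and 0.431% in the control-labelled library, a ratio of 2.34 (1.41 to 3.85). Barcodes past the neutrophil or erythroid limit had been set apart first, and the part of that order in the ratio was not tested. Their median mitochondrial share was 1.70% in the null-labelled and 5.62% in the control-labelled library, and the part of that difference in the results below was not tested. Their UMIs summed to 61046 in the null-labelled and 72770 in the control-labelled library. Vcam1 or Slc40a1 was detected in 7 of 30 null-labelled and 32 of 40 control-labelled barcodes of this set.

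The genes that set the C1q-positive barcodes apart in both libraries were macrophage genes, which describes the choice rather than testing it. By the smaller of the libraries' ratios over all other barcodes, the leading 15 genes included Marco, C1qb, C1qa, C1qc, Axl, Apoe, Spic, Sdc3, Il18, Adgre1, Aif1, Lgmn, Maf and Hmox1. Marco, a scavenger receptor for bacteria and particles, had 89.2 CPM in null-labelled C1q-positive barcodes against 1.72 CPM in the other null-labelled barcodes, and 49.4 CPM in control-labelled C1q-positive barcodes against 2.13 CPM in the other control-labelled barcodes. Axl, a receptor through which macrophages recognise dying cells, had 91.3 CPM against 5.99 CPM in the null-labelled library and 122 CPM against 11.8 CPM in the control-labelled library. Spic had 68.5 CPM against 3.59 CPM in the null-labelled library and 28.9 CPM against 3.39 CPM in the control-labelled library. Of these 4 ratios of Marco and Spic the smallest was 8.52, for Spic in the control-labelled library.

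The make-up of the C1q transcripts differed between the libraries. C1qb lies on chromosome 4 from 136880129 to 136886187 on the minus strand (mm10, GENCODE vM21), beside C1qc (136889804 to 136893065) and C1qa (136895917 to 136898803). C1qb made up 65.9% (62.3 to 69.3%) of 747 C1q UMIs in null-labelled and 39.0% (36.6 to 41.4%) of 1627 C1q UMIs in control-labelled C1q-positive barcodes. These are shares of 3′ counts, not per length, and they are compared between libraries only. In the barcodes with macrophage transcripts C1qb was 58.5% in the null-labelled and 37.5% in the control-labelled library. The gap was also present outside the C1q-positive barcodes, at 59.4% of 288 UMIs in the other null-labelled and 34.9% of 4426 UMIs in the other control-labelled barcodes. In B and T cell barcodes alone it was 59.6% in the null-labelled and 35.0% in the control-labelled library. The chain make-up thus differed by library in each of the 6 sets plotted. Those sets overlap and are not separate support. The C1q-positive barcodes include the macrophage, macrophage and monocyte, and neutrophil-led sets, and the other barcodes include the B and T cell barcodes. In the control-labelled macrophage and monocyte set, 1 barcode held 259 of 388 C1q UMIs. In monocyte barcodes, with 22 C1q UMIs in each library, C1qb was 40.9% (20.7 to 63.6%) in the null-labelled and 45.5% (24.4 to 67.8%) in the control-labelled library. In the erythroid-led barcodes the intervals overlapped too, at 75.0% of 4 UMIs in the null-labelled and 37.2% of 199 UMIs in the control-labelled library.

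**Figure D3:**
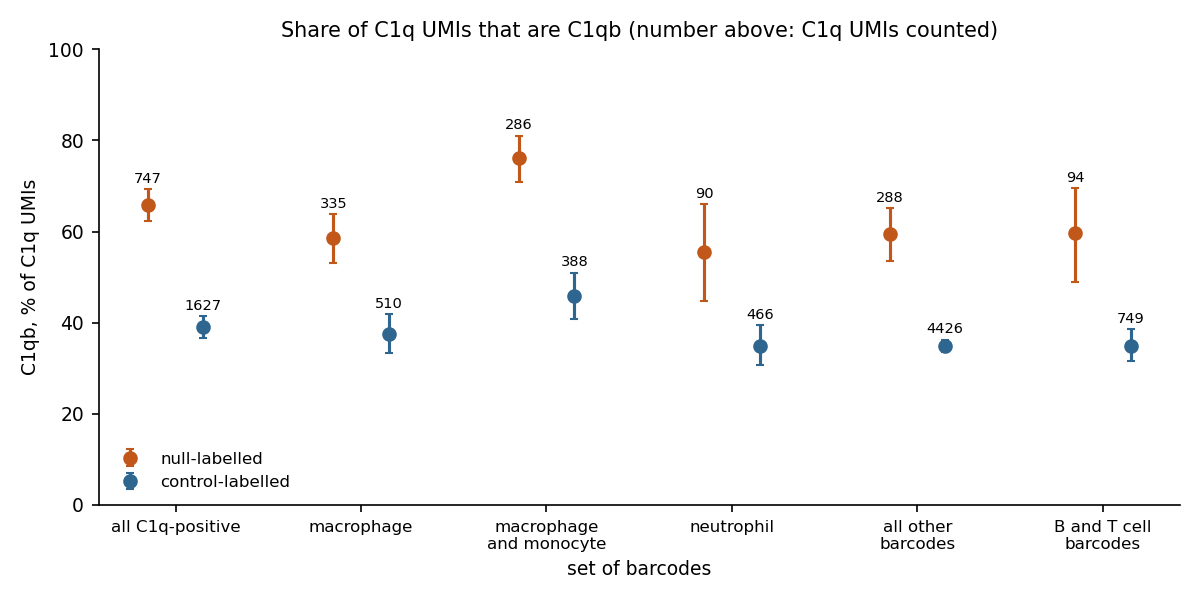
Share of C1q UMIs that are C1qb (y axis, %) in 6 sets of barcodes, null-labelled (orange) left of control-labelled (blue), with exact 95% intervals and the number of C1q UMIs. In these 6 sets every null-labelled share lies above its control-labelled neighbour and the intervals do not overlap, while those of monocyte and erythroid-led barcodes, not plotted, do overlap. Some of the plotted sets are parts of others.

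Summed over all C1q-positive barcodes, C1qb had 1021 CPM (933 to 1115) in the null-labelled and 483 CPM (446 to 522) in the control-labelled library, but its log2 ratio was -0.12 at a minimum of 10 C1q UMIs and -0.14 in the barcodes with macrophage transcripts and few stromal or dendritic ones. C1qa had 295 CPM (248 to 347) in null-labelled and 451 CPM (416 to 489) in control-labelled barcodes, and C1qc 234 CPM (193 to 282) in null-labelled and 303 CPM (274 to 334) in control-labelled barcodes. In the control-labelled library 1 barcode with macrophage and monocyte transcripts held 259 of these C1q UMIs. Of the other complement genes, the alternative pathway's factor B (Cfb) had 46 UMIs against 0, which is 41.9-fold higher against a floor of 3 UMIs and at least 32.7-fold higher by the exact interval. Properdin (Cfp), which stabilises the alternative pathway's convertase, had 332 CPM in null-labelled and 150 CPM in control-labelled barcodes, and its log2 ratio was -0.85 when barcodes with macrophage transcripts were taken alone. The central component C3 differed little, with 295 and 258 CPM.

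Genes were counted where 1 of the libraries reached 50 CPM and both together 30 UMIs. Of 3507 such genes, 894 (25.5%) were 2-fold or more higher and 707 (20.2%) 2-fold or more lower in null-labelled C1q-positive barcodes. With hemoglobin, immunoglobulin, S100a8 and S100a9 left out of the totals, the split was 753 higher and 1003 lower. The median log2 ratio of all counted genes was 0.12, and -0.18 with those genes left out of the totals, so log2 ratios here carry a shift of that size. A gene enters this count through either library alone, so genes at 0 in 1 library had to differ. The 12 genes highest by the bound of the interval nearest to 1 were Saa3, Cxcl10, Gbp2, Cxcl9, Ccl12, Ccl5, Acod1, Ifi205, Timp1, Upp1, Gbp4 and Zbp1. The acute phase gene Saa3 had 11450 UMIs in 31 null-labelled barcodes and 2 UMIs in 1 control-labelled barcode, a ratio of 15627 (4325 to 129056). Of these Saa3 UMIs, 10945 lay in the 17 null-labelled barcodes with macrophage and monocyte transcripts.

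The 12 lowest genes included Retnlg, Prss34, Mcpt8, Ly6g, Slc40a1, Car2, Cpox, Mns1, Hba-a1, Smim1 and Aqp1. Retnlg and Ly6g are neutrophil genes, Prss34 and Mcpt8 are basophil proteases, and Hba-a1, Car2, Cpox and Aqp1 are genes of red cell precursors. Retnlg had 22.8 CPM in null-labelled and 2425 CPM in control-labelled barcodes, and the control-labelled UMIs came from 67 barcodes. All 541 Prss34 UMIs came from 2 control-labelled barcodes. Lower values of these genes went with the make-up of the sets. Summed over its 12 genes the neutrophil list had 59030 CPM in null-labelled and 179497 CPM in control-labelled barcodes, with 10 of 12 counted genes lower. The erythroid list had 4816 CPM in null-labelled and 44672 CPM in control-labelled barcodes, with 13 of 13 counted genes lower and a median log2 ratio of -3.50. All 14 genes of DNA replication and division, such as Mki67 (131 and 1076 CPM), were lower too, at a median of -2.07. In the barcodes with macrophage transcripts none of those 14 passed the minimum. The part of the neutrophil and erythroid transcripts in the other differences was not tested, and the barcodes with macrophage transcripts are therefore given on their own below.

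In the barcodes with macrophage transcripts 696 genes were counted, of which 187 (26.9%) were 2-fold or more higher and 101 (14.5%) 2-fold or more lower in the null-labelled library. The median log2 ratio of all counted genes was 0.17. Here too a gene is counted through either library alone, so a gene at or near 0 in 1 library had to differ. This holds for the counts of each list below. The 12 highest genes by the interval bound nearest to 1 included Saa3, Cxcl9, Cxcl10, Gbp2, Ccl5, Isg15, Acod1 and Lcn2. The 12 lowest included Slc40a1, Vcam1, Trf and Lpl, each found in 21 or more control-labelled barcodes, the mitochondrial gene mt-Nd2, and Cxcl12, Igfbp5, Sparc, Igfbp4 and Siglech, whose control-labelled UMIs came from 2 barcodes each.

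**Figure D4:**
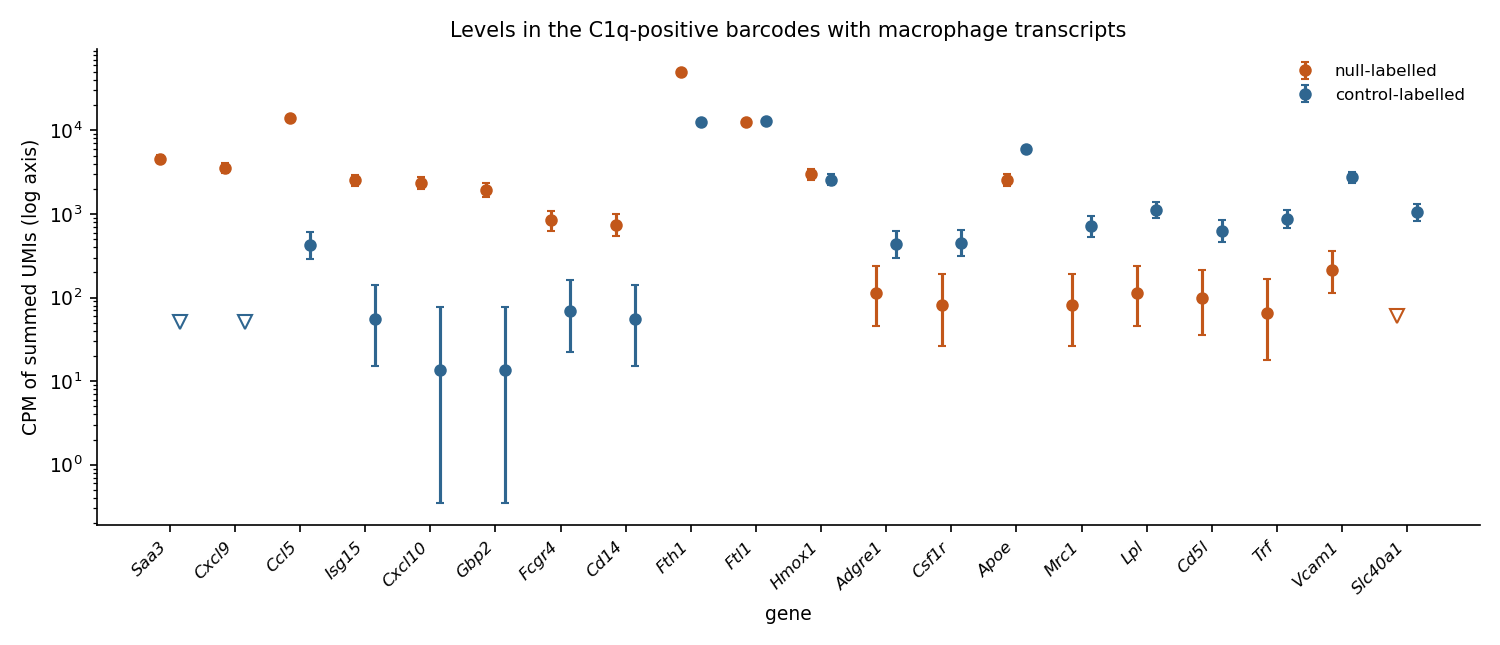
CPM (log axis) of 20 genes in the C1q-positive barcodes with macrophage transcripts, 30 null-labelled (orange) and 40 control-labelled (blue), summed by library. Bars are exact Poisson 95% intervals and open triangles upper bounds of a count of 0. Genes from Saa3 to Fth1 are higher in the null-labelled library, Ftl1 and Hmox1 are near each other, and genes from Adgre1 to Slc40a1 are lower.

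Chemokines, the secreted proteins that draw leukocytes, were mostly higher. Of 10 counted chemokine genes, 8 were higher and 2 lower, with a median log2 ratio of 4.23, where genes at 0 in 1 library entered at the floor of 3 UMIs. Cxcl9, which attracts activated T cells, had 219 UMIs in 25 of 30 null-labelled barcodes and 0 UMIs in 40 control-labelled barcodes, which is 87.0-fold higher against the floor of 3 UMIs and at least 70.2-fold higher by the exact interval. Its level was 3587 CPM there against 111 CPM in null-labelled B and T cell barcodes, where 5.89% had a UMI. Cxcl10, which binds the same receptor, had 144 UMIs against 1, a ratio of 172 (30.3 to 6827). Ccl5, a chemokine for T cells and monocytes, had 14071 CPM in the null-labelled library with UMIs in 29 of 30 barcodes, and 426 CPM in the control-labelled library, where all 31 UMIs came from 1 barcode. Null-labelled B and T cell barcodes had 2194 CPM of Ccl5, with a UMI in 28.5%. The monocyte chemokines Ccl8 (40 UMIs against 1, ratio 47.7, 8.08 to 1930) and Ccl12 (43 UMIs against 0, at least 13.3-fold by the exact interval) and the membrane-bound Cxcl16 (33 UMIs against 2, ratio 19.7, 5.03 to 169) were higher as well. Thus the T cell chemokines were found in most null-labelled barcodes of the set and in 1 control-labelled barcode each at most. The chemokine list was also higher in monocyte barcodes (8 of 10 counted, 2 lower, median 5.86). In all other barcodes 4 of 6 counted chemokine genes were higher and 2 lower, at a median of 3.59. Of all genes counted in monocyte barcodes 13.7% were higher and 14.6% lower, and in all other barcodes 7.72% were higher and 11.8% lower.

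The lower chemokines were Cxcl12 and Ccl6. Cxcl12, which marrow stroma makes to hold blood stem cells, had 0 UMIs against 226 UMIs that lay in 2 control-labelled barcodes, together with the stromal genes Igfbp5 and Sparc. Siglech, a marker of plasmacytoid dendritic cells, had 0 against 42 UMIs in 2 control-labelled barcodes. Without the barcodes in which stromal or dendritic lists reached 0.5% of UMIs, 170 genes were higher and 90 lower. So the counts stayed within 1.5-fold when those barcodes were left out.

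Interferon-induced genes were higher in every set of barcodes. Of 24 listed genes, 14 were counted in the barcodes with macrophage transcripts and 12 of them were 2-fold or more higher, none was lower, and the median log2 ratio was 3.96. Over all C1q-positive barcodes 23 of 23 counted genes were higher at a median of 5.18. In monocyte barcodes 22 of 22 were higher at a median of 4.005, beside 13.7% of all genes counted there. In all other barcodes 21 of 21 were higher at 4.13, beside 7.72%. The interferon difference was thus present in all 4 sets, and it is not particular to C1q-positive barcodes.

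Isg15, a ubiquitin-like modifier, had 154 UMIs in 26 of 30 null-labelled barcodes and 4 UMIs in 4 of 40 control-labelled barcodes, or 2523 and 55.0 CPM, a ratio of 45.9 (17.6 to 171). B and T cell barcodes had a UMI of Isg15 in 42.4% of the null-labelled and 8.56% of the control-labelled library, at 300 and 56.7 CPM. Gbp2, a guanylate-binding protein that attacks the vacuoles of intracellular pathogens, had 119 UMIs against 1, a ratio of 142 (25.0 to 5649). Mx1, an antiviral GTPase, had 35 UMIs in 18 barcodes against 0, at least 10.7-fold higher by the exact interval. Bst2, which tethers budding viruses, was within 2-fold, with 38 UMIs against 53 and a log2 ratio of -0.23.

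To show the letters that the interferon list was searched for, the promoters of 2 of its genes, Isg15 and Gbp2, and of Cxcl10 and Saa3 from other lists are given from RefSeq (GRCm38.p6), each from 250 bases before to 50 bases after the transcript start, on the strand of the gene. The core of the interferon-stimulated response element, searched as GAAA, any 2 bases and GAAA again on both strands, is in capitals where it matched. Isg15 is at chr4:156200769-156201068 on the minus strand, Cxcl10 at chr5:92348840-92349139 (minus), Gbp2 at chr3:142620413-142620712 (plus) and Saa3 at chr7:46715627-46715926 (minus). C1qb, at chr4:136886151-136886450 (minus), is shown as a gene of the choice itself.
Isg15: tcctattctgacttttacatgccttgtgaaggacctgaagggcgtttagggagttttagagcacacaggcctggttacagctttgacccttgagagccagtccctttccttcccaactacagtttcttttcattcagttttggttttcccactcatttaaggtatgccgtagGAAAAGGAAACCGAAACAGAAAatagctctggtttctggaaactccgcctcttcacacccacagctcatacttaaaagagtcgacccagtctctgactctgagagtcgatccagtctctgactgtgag
Cxcl10: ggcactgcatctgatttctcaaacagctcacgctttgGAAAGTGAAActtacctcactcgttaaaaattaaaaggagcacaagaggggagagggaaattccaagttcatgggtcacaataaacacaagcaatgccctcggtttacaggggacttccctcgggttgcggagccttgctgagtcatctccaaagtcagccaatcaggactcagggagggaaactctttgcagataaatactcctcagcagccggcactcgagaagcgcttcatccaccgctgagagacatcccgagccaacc
Gbp2: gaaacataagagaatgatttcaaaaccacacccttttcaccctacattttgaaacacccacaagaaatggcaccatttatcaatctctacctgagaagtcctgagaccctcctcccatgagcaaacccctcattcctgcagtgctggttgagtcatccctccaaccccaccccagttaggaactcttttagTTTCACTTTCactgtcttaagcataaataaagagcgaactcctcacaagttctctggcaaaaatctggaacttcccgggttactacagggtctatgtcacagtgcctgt
Saa3: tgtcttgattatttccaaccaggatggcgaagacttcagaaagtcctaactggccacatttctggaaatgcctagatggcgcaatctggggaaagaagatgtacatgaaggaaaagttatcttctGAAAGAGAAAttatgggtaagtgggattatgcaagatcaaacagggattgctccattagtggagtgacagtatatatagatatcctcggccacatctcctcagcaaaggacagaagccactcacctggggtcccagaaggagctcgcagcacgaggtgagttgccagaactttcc
C1qb: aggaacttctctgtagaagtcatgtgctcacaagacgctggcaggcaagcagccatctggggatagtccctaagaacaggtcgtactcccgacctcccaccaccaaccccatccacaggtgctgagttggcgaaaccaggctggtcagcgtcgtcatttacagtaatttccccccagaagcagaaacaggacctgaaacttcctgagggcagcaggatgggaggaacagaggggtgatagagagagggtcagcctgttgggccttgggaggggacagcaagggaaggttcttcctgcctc
The Isg15 promoter held 3 overlapping matches at -78, -72 and -66 from the start, and Cxcl10 held 1 at -213. Gbp2 and Saa3 held 1 each, and the C1qb window held none. Over the interferon list, 19 of 24 genes matched an entry by symbol, and 15 of their 21 promoters (71.4%) held the motif, against 1131 of 32851 promoters of this length (3.44%). The motif was rarer in the lists of the other 2 genes, in 1 of 11 chemokine promoters, that of Cxcl10, and in 1 of 12 NF-kB and acute phase promoters, that of Saa3. A kB core, searched as GGGA, any 4 bases and CC on both strands, was in 5 of those 12 promoters (41.7%), against 20.7% of all. It was also in 6 of 15 macrophage identity promoters (40.0%) and 6 of 16 lysosome promoters (37.5%). The lowest share of a searched list was 25.0%, for erythroblastic islands and iron recycling. The kB core was thus not particular to the NF-kB and acute phase list. A match is a description of letters and not evidence of binding.

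Genes of the NF-kB and acute phase list were higher in the null-labelled barcodes with macrophage transcripts, 5 of 5 counted, at a median log2 ratio of 4.50. Of all genes counted in this set 26.9% were higher. A gene is counted through either library alone, and 8 of the 15 listed genes had 0 UMIs in the control-labelled barcodes. The count of 5 is therefore partly set by the minimum. Sod2, the mitochondrial superoxide dismutase, had 227 UMIs in 30 of 30 barcodes against 12 UMIs in 10 of 40, or 3719 and 165 CPM. Acod1, which makes the antimicrobial metabolite itaconate, had 45 UMIs in 20 barcodes against 0, at least 14.0-fold higher by the exact interval. Saa3 had 279 UMIs in 10 of 30 barcodes against 0, and 134 of them were in 1 barcode. Its level of 4570 CPM compares with 1094 CPM in null-labelled B and T cell barcodes, 14.6% of which had a UMI. Lcn2, an iron-siderophore binding protein, had 153 UMIs against 6, of which 84 were in 1 barcode. Il1rn, the interleukin-1 receptor antagonist, had 40 UMIs against 1 (ratio 47.7, 8.08 to 1930). Sod2 was thus spread over all 30 barcodes, while Saa3 and Lcn2 were concentrated in a few. The NF-kB and acute phase list was also higher in monocyte barcodes (9 of 11 counted, median 3.50), beside 13.7% of all genes counted there. In all other barcodes 6 of 8 counted genes of the list were higher, at a median of 1.43, beside 7.72%.

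**Figure D5:**
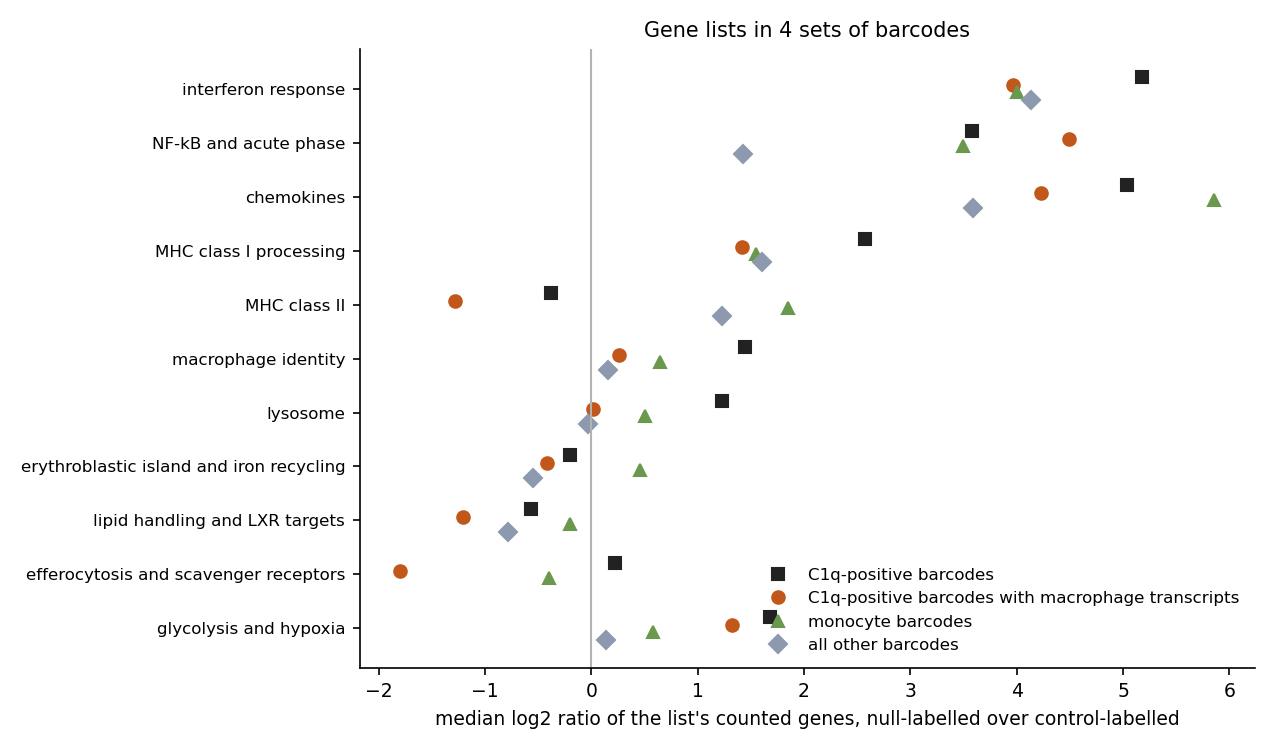
Median log2 ratio, null-labelled over control-labelled, of the counted genes of 11 lists (rows) in 4 sets of barcodes (markers). The interferon list lies between 3.96 and 5.18 in all 4 sets, while the MHC class II list is below 0 in both C1q-positive sets and above 0 in monocyte and all other barcodes.

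Genes of iron handling did not move together. Of 18 listed genes of erythroblastic islands and iron recycling, 8 were counted in the barcodes with macrophage transcripts, 1 higher and 3 lower, with a median log2 ratio of -0.41. Slc40a1 had 0 UMIs in 30 null-labelled barcodes (0 CPM, upper bound 60.4) and 77 UMIs in 27 of 40 control-labelled barcodes (1058 CPM, 835 to 1322), which is 21.5-fold lower against the floor of 3 UMIs and at least 17.1-fold lower by the exact interval. Vcam1 had 13 UMIs in 7 null-labelled barcodes and 199 UMIs in 29 control-labelled barcodes, 213 against 2735 CPM, which is 12.8-fold lower (7.34 to 24.5). Trf, the iron carrier transferrin, had 4 UMIs against 64, 13.4-fold lower (4.99 to 50.8). Fth1, the ferritin heavy chain that oxidises iron for storage, was the higher one, with 49717 CPM in null-labelled and 12574 CPM in control-labelled barcodes, a ratio of 3.95 (3.67 to 4.26). Ftl1, the ferritin light chain, had 12482 and 12849 CPM, a ratio of 0.971 (0.882 to 1.07).

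Hmox1, which opens the heme ring to free its iron, had 183 UMIs in 23 null-labelled and 188 UMIs in 33 control-labelled barcodes, a ratio within counting error (0.941 to 1.43). Spic had 16 UMIs against 14 (0.623 to 3.01). Cd163, the receptor for hemoglobin bound to haptoglobin, had 0 UMIs in null-labelled and 16 UMIs in 11 control-labelled barcodes, and was under the minimum. So the exporter and the adhesion gene were lower, ferritin heavy chain was higher, and Hmox1, Spic and Ftl1 were near each other. In all other barcodes Slc40a1 and Vcam1 also had negative log2 ratios, of -2.64 and -1.89.

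Of the genes known in tissue macrophages, some were lower and others within 2-fold. Mrc1, the mannose receptor, had 5 UMIs in 3 null-labelled and 52 UMIs in 24 control-labelled barcodes, 8.72-fold lower (3.51 to 28.0). Cd5l, a secreted protein of tissue macrophages, had 6 UMIs against 46, 6.43-fold lower (2.74 to 18.4). Igf1, a growth factor of resident macrophages, had 4 UMIs against 39, 8.18-fold lower (2.95 to 31.5). Of the efferocytosis and scavenger list, 4 genes were counted, 0 higher and 2 lower, with a median of -1.79, and Axl (26 UMIs against 58) and Marco (32 against 24) were within 2-fold. Of the 12 genes of the alternative activation list, 3 were counted, Mrc1, Igf1 and Chil3. All 3 were lower, beside 14.5% of all genes counted in this set. With 5, 4 and 3 null-labelled UMIs, they were counted through the control-labelled library. That all 3 were lower is therefore largely set by the minimum and says little about the list. Of the 50 control-labelled Chil3 UMIs, 48 were in 1 barcode.

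The macrophage identity list was divided, with 4 genes higher, 6 lower and 8 within 2-fold among 18 counted, and a median of 0.26. The higher genes included Fcgr4 (51 UMIs against 5, ratio 12.2, 4.88 to 39.0) and Fcgr1 (22 against 8), the activating receptors for immunoglobulin G, and Cd14 (45 against 4, ratio 13.4, 4.89 to 51.3), the co-receptor for bacterial lipopolysaccharide. The lower genes included Csf1r, the receptor for the macrophage growth factor CSF1, with 81.9 and 453 CPM, and Adgre1, which encodes the F4/80 antigen, with 115 and 440 CPM. Cd68 (11 UMIs against 42) was lower as well. The list helped to choose this set, and so did Csf1r, so these values are a description. Without the barcodes that also held stromal or dendritic lists at 0.5% or more, the median of the list was -0.05.

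Lipid genes went both ways, with 2 higher and 3 lower among 5 counted. Plin2, which coats lipid droplets, had 60 UMIs in 15 null-labelled barcodes against 5 in 3 control-labelled barcodes, a log2 ratio of 3.84. Lpl, the lipoprotein lipase, had 7 UMIs against 81, 9.71-fold lower (4.50 to 24.9). Apoe had 2572 CPM in null-labelled and 5937 CPM in control-labelled barcodes, although both libraries carry the label Apoe(-/-). Fabp4 had 9 UMIs against 71, of which 62 were in 1 control-labelled barcode. Lysosome genes were mostly level, with 1 higher, 3 lower and 11 within 2-fold among 15 counted and a median of 0.02. The protease genes Ctsb (166 UMIs against 189) and Ctss (99 against 82) were within 2-fold, and Ctsd had 38 against 174, a log2 ratio of -1.94.

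Antigen presentation differed by class. Of the 10 counted genes of MHC class I presentation, 5 were higher and 0 lower, with a median of 1.42. Tap1, a peptide transporter subunit, had 28 UMIs against 9, and the proteasome activator Psme2 66 against 14, while B2m, the class I light chain, was within 2-fold at 280 against 173. All 5 counted MHC class II genes were lower, with a median of -1.28. Their invariant chain Cd74 had 190 UMIs in 25 of 30 null-labelled barcodes and 551 UMIs in 16 of 40 control-labelled barcodes, 180 of them in 1 barcode. H2-Aa had 72 UMIs in 16 barcodes against 200 UMIs in 8 barcodes. H2-Aa and Cd74 were thus counted in more null-labelled barcodes, while their sums were higher in the control-labelled library. Over all C1q-positive barcodes the class II median was -0.38, and it was 2.40 after barcodes with the highest doublet scores were left out. In monocyte barcodes it was 1.85, with 4 of 6 higher. The class I list was higher there too, with 9 of 12 counted genes and a median of 1.55, beside 13.7% of all genes counted in monocyte barcodes. In all other barcodes 12 of 12 class I genes were higher, at a median of 1.60, beside 7.72%.

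Glycolysis genes were higher, 5 of 7 counted at a median of 1.32, such as Gapdh (81 UMIs against 34) and Pgam1 (30 against 8). In monocyte barcodes 2 of 12 counted genes of that list were higher and 1 lower, at a median of 0.58, beside 13.7% and 14.6% of all genes counted there. In all other barcodes the median of that list was 0.13.

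The barcodes with both macrophage and monocyte transcripts were deep, with medians of 14913 UMIs in 17 null-labelled and 6138 UMIs in 7 control-labelled barcodes. Their monocyte limits are counts, so this depth is tied to the split as well. Saa3 had 38903 CPM in the null-labelled barcodes, beside 23848 CPM in null-labelled monocyte barcodes, and 2 UMIs in 1 of the control-labelled barcodes. Cxcl10 was found in all 17 null-labelled barcodes, at 2776 CPM, and had 2 UMIs in the 7 control-labelled barcodes. C1qb had 775 CPM in null-labelled and 3245 CPM in control-labelled barcodes, but 1 of the 7 control-labelled barcodes held 259 of their 388 C1q UMIs. Vcam1 had 1 UMI in the null-labelled barcodes and 10 UMIs in the control-labelled ones. Slc40a1 had 0 UMIs in the null-labelled and 2 UMIs in the control-labelled barcodes. The null-labelled members of this set thus carried Saa3 and Cxcl10 in every barcode and almost no Vcam1 or Slc40a1.

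The neutrophil-led barcodes took a median of 24.1% of their UMIs from the neutrophil list in 5 null-labelled barcodes and 40.4% in 68 control-labelled barcodes. Their median depth was 20065 UMIs in null-labelled and 6784 UMIs in control-labelled barcodes, and their median C1q count 3 UMIs in null-labelled and 4 UMIs in control-labelled barcodes. Vcam1 or Slc40a1 was detected in 4 of 5 null-labelled and 53 of 68 control-labelled barcodes of this set, and in 0 of 1 and 19 of 21 of the erythroid-led barcodes. Most neutrophil-led barcodes of both libraries thus held a macrophage marker together with C1q. In the control-labelled library so did most macrophage-led and erythroid-led barcodes. In the null-labelled library a marker was found in 7 of 30 barcodes with macrophage transcripts and 1 of 17 with macrophage and monocyte transcripts. When barcodes with the highest doublet scores were left out, 3 null-labelled (5.56%) and 28 control-labelled C1q-positive barcodes (18.9%) were removed, and 2 and 17 of these were neutrophil-led. The number removed was set by library size, at 71 of 2974 null-labelled (2.39%) and 690 of 9285 control-labelled barcodes (7.43%). The counts of 3 and 28 therefore do not compare doublets between the libraries.

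Itgb3 (chromosome 11 from 104608000 to 104670476, plus strand) was at the limit of detection in C1q-positive barcodes. It had 4 UMIs in 2 of 54 null-labelled barcodes (8.30 CPM) and 11 UMIs in 9 of 148 control-labelled barcodes (8.36 CPM). No UMI was found in the barcodes with macrophage transcripts of either library. B and T cell barcodes had a UMI of Itgb3 in 4.15% of the null-labelled and 4.42% of the control-labelled library. The sets differ in depth and B and T cells were not shown to lack Itgb3, so these shares do not set a background. Itgav, which encodes the partner chain of integrin β3 outside platelets, had 6 UMIs in null-labelled and 17 UMIs in control-labelled barcodes, a log2 ratio of -0.05 once scaled to the totals. Of 8 counted genes of integrins and their activators, 3 were higher and 0 lower over all C1q-positive barcodes. In the barcodes with macrophage transcripts 3 were counted, and the only one past 2-fold was Tln1, the talin that switches integrins on, with 15 UMIs against 41.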

How the data were processed

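Single-cell libraries of bone marrow were compared as 1 null-labelled against 1 control-labelled library. The deposited matrices hold raw counts of UMIs per gene and barcode, without normalization, per the file headers. Per the submitters' processing notes the authors used Cell Ranger 3.0, Seurat and build mm10, and the software version in the matrix header is 3.1.0. Of 31053 features, 30934 (99.6%) matched GENCODE vM21. There were 4281 null-labelled barcodes with 44694854 UMIs and 12764 control-labelled barcodes with 79192158 UMIs. Before the choice of C1q-positive barcodes, 1307 and 3479 barcodes were removed by the limits on genes and mitochondrial UMIs. Cell names were rebuilt here from marker genes.

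UMIs of C1q-positive barcodes were summed per library and given as CPM with exact Poisson intervals. A ratio of null-labelled over control-labelled CPM carries an exact interval from the split of UMIs, at 95%. Genes were called by size, 2-fold or more. Against a count of 0, a fold uses a floor of 3 UMIs in that library. Monocyte barcodes had at least 5 UMIs of the monocyte genes and 1 of Csf1r, and B and T cell barcodes at least 3 UMIs of the Cd79 or Cd3 genes. Doublets were kept, and were scored with Scrublet in scanpy 1.11.5 for an alternative at 0.8% per 1000 barcodes. Named genes were those of the 31 lists and the rule, the 12 highest and 12 lowest by the interval bound nearest to 1, without predicted genes, and the 15 leading genes over other barcodes. Some genes that the rule names are not reported here. The scripts, in Python 3.11.15 with scipy 1.17.1, were tested on simulated data. The members, the sets and the lists were chosen with earlier results of these data known. Alternatives covered the limits, thinning, doublets, free RNA, scaling (TMM in edgeR 4.0.16) and the sets of barcodes.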

Additional observations from a re-analysis of the deposited data

How the results depend on the processing

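No paired analysis was possible because each genotype is 1 library. The share ratio of 1.14 was 1.56 at 5% mitochondrial UMIs, 2.03 at a minimum of 10 C1q UMIs, 0.317 among barcodes also holding Vcam1 or Slc40a1, 2.34 for barcodes with macrophage transcripts, 2.53 when those with stromal or dendritic lists at 0.5% were also left out, and 2.54 without neutrophil-led and erythroid-led barcodes. Thinned to 2000 UMIs, 15 of 2847 null-labelled (0.527%) and 30 of 7914 control-labelled barcodes (0.379%) were C1q-positive, with 23 and 39 shallower ones left out. The counts of 894 higher and 707 lower genes were 508 and 967 with Vcam1 or Slc40a1 required, 121 and 54 after thinning, 1805 and 2005 at a minimum of 10 UMIs, 187 and 101 with macrophage transcripts, and 170 and 90 with stromal and dendritic lists also limited. TMM scaling gave 795 and 828, and the mean over barcodes 835 and 848. The interferon median of 5.18 was 3.96 and 3.65 in the macrophage sets. Among lists and genes past 2-fold, signs turned for the monocyte list (-0.57 with Vcam1 or Slc40a1), the B cell list (-0.085 by the mean over barcodes, -0.32 at 10 UMIs), the osteoclast list (0.11 by the mean over barcodes), the dendritic list (-1.68 with macrophage transcripts, -0.21 without neutrophil-led and erythroid-led barcodes), the neutrophil list (0.20 without those barcodes), the macrophage identity and lysosome lists (-0.051 and -0.27 in the stricter macrophage set) and C1qb (-0.12 at 10 C1q UMIs, -0.14 in the stricter macrophage set). Counting medians within 2-fold too, 16 of 28 lists and 5 of 31 genes turned under some alternative, such as MHC class II (-0.38, and 2.40 without the highest doublet scores), C1qa (0.11) and Apoe (0.18), both with Vcam1 or Slc40a1 required. The causes were not tested. Over the single genes, 300 of 463 values lay within the interval of the reported one. Free RNA was estimated at 3.54% of the null-labelled and 3.11% of the control-labelled UMIs of C1q-positive barcodes, from 5 and 21 B and T cell UMIs. The choice allowed at most 1 UMI of the B cell genes and 1 of the T cell genes per barcode. The estimate is therefore held low by the choice and cannot tell how much free RNA these barcodes held.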

Other observations

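The limits on other cell types shaped the set of C1q-positive barcodes unequally. At least 3 C1q UMIs were found in 76 of 2974 null-labelled barcodes (2.56%) and 428 of 9285 control-labelled barcodes (4.61%) before those limits, a ratio of 0.554 (0.428 to 0.709). The limits removed 22 and 280 of them. Hemoglobin at 20% or more of UMIs accounted for 7 null-labelled and 240 control-labelled barcodes, and more than 1 B cell UMI for 13 and 43. In the control-labelled library most barcodes with C1q were therefore rich in hemoglobin and lie outside the barcodes described above.

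Inducible nitric oxide synthase, Nos2, had 72 UMIs in null-labelled and 0 UMIs in control-labelled C1q-positive barcodes, and 64 of the 72 lay in the barcodes with macrophage and monocyte transcripts. Timp1, an inhibitor of matrix proteases, had 150 UMIs and 0 UMIs, with 135 of the 150 in the same barcodes. Timd4, a receptor for dying cells on resident macrophages, had 6 of 481945 null-labelled and 16 of 1315554 control-labelled UMIs over all C1q-positive barcodes. Since these totals are unequal, the raw counts do not show a lower level in the null-labelled barcodes.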
